A study of Homo sapiens with 6 samples.

Results

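CDKN1A, MDM2, GDF15, BTG2, SESN1, SESN2, FAS, TP53I3 and ZMAT3 are 9 genes that the transcription factor p53 is known to switch on after DNA damage. They were taken by gene symbol from the deposited expression table, where each symbol has a single row, so that they make up 9 of its 58735 genes. The table comes from MDA-MB-231, a human line from a basal-like breast adenocarcinoma, bought from a cell bank and grown in culture. RNA was collected from 3 control samples at 0 Gy and from 3 samples 24 h after 10 Gy from a caesium irradiator. The cells are taken to carry the non-targeting shRNA shSCR, from the name SCR in the labels and the methods of the study, and the sample labels give their genotype as WT and their treatment as control or radiation. The label WT names no gene and does not give the p53 status of the line, which was not checked here, so the cells cannot be taken as wild type for p53. The comparison of the 2 doses asks how these genes differ after irradiation in this line. The groups are samples of a single cell line. No label says whether replicates were separate cultures, so the p-values measure only the spread between these samples, which may be technical.

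In cells with wild-type p53, DNA breaks activate the kinases ATM and ATR, which stabilise p53, and p53 then binds its target genes and raises their transcription. CDKN1A (p21) and BTG2 slow the cell cycle, FAS and TP53I3 are linked to cell death, SESN1 and SESN2 restrain growth signalling under stress, ZMAT3 acts on RNA, GDF15 is a secreted stress cytokine, and MDM2 marks p53 itself for degradation. Most of these genes also answer to other factors. SESN2 and GDF15, for example, are known targets of the ATF4 stress response, and CDKN1A can be induced without p53.

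Expression was given as FPKM, which scales the fragments of a gene by its length and by the depth of the library. The reads behind the values could be recovered, since all of them (100%) came out whole, within 0.05 reads, from FPKM, gene length and an implied library depth. These reads summed to between 15643641 and 28861781 per library, a 1.84-fold range. The implied depth was 0.973 to 0.991 times the summed reads at 0 Gy and 1.03 to 1.04 times at 10 Gy. For the same share of the summed reads, FPKM as deposited is therefore slightly lower at 10 Gy, for all genes alike. Results under other scalings are given below. No 2 libraries held identical values, and on log2(FPKM + 1) libraries of the same dose correlated across genes at 0.992 or more, against 0.989 or less for libraries of different doses. Markers of a mesenchymal, basal-like line were high at 0 Gy, with VIM at 301 FPKM and CD44 at 78.6 FPKM, although SPARC was at 0.270 FPKM. The luminal genes ESR1, PGR and FOXA1 were between 0 and 0.0963 FPKM in every library, GATA3 was at 3.05 FPKM at 0 Gy, and the leukocyte gene CD3E was listed at 0. Of the other luminal genes, TFF1 went from 1.08 to 1.92 FPKM and was called higher at 10 Gy (adjusted p = 0.0466 from limma), and ERBB3, under the minimum level, went from 0.426 to 0.700 FPKM without overlap. PECAM1, an endothelial marker, was at 1.22 FPKM at 0 Gy and 1.94 FPKM at 10 Gy, while CDH5 averaged 0.0877 FPKM at 0 Gy and VWF was at most at 0.0311 FPKM in any library. What part TFF1, ERBB3 and PECAM1 have in the other results was not tested.

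The starts of the 9 genes were searched for the p53 decamer, the 10-base element that p53 binds in pairs. RefSeq windows of 300 bases, 250 before to 50 after a transcription start on GRCh38, were at hand for all 9 genes, 17 windows in all. A search for 2 decamers side by side, with the C and G of each core kept, was added after the windows had been read. The 4 genes whose best match had at most 3 mismatches are shown because these are the closest matches among the 9 genes, all of them imperfect, with the 20 bases of the match in capitals and written 5′ to 3′ on the strand of the gene.
MDM2, chr12:68808918-68808947, plus strand: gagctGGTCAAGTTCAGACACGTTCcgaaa
FAS, chr10:88991304-88991333, plus strand: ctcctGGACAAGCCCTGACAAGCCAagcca
SESN1, chr6:109009013-109009042, minus strand: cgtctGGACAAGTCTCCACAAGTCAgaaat
GDF15, chr19:18386181-18386207, plus strand: tgcacAGCCATGCCCGGGCAAGAACtc
The MDM2 and FAS matches had 2 mismatches to the paired decamer, and the SESN1 and GDF15 matches had 3. Among all 35116 windows, 0.285% held a match with at most 2 mismatches and 1.12% a match with at most 3. In GENCODE 29 the MDM2 stretch is intronic in all 7 transcripts that span it, the intron known to hold the p53-responsive promoter of MDM2. The SESN1 stretch is intronic in both transcripts that span it, the FAS stretch is exonic in 2 of 13, and the GDF15 stretch lies in an exon with coding sequence in 3 of 3. The best match had 4 mismatches in ZMAT3, 5 in CDKN1A, 9 in BTG2 and SESN2 and 10 in TP53I3. A decamer without mismatch, searched alone, was found in FAS and SESN1, inside the stretches shown, and in 6.63% of all windows. CARE, the element of ATF4 written TGATGNAAN and searched on both strands, was found in none of the 9 genes and in 3.61% of all windows. Letters that are absent from these windows may lie elsewhere, and a match does not show that p53 binds in these cells.

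The levels in unirradiated cells spanned 409-fold, and CDKN1A alone made up 53.2% of the summed FPKM of the 9 genes. CDKN1A was the most abundant at 30.7 ± 1.72 FPKM (SD, n = 3), above 86.3% of the 12128 genes whose mean over the libraries reached 1 FPKM. MDM2 followed at 7.35 ± 0.302 FPKM (SD, n = 3), close to the middle of those genes, with 51.0% of them lower. TP53I3 (6.16 FPKM), SESN2 (4.96 FPKM), GDF15 (3.67 FPKM), ZMAT3 (2.47 FPKM) and SESN1 (1.36 FPKM) came next. FAS stood at 1.00 ± 0.117 FPKM (SD, n = 3) and BTG2 at 0.0752 ± 0.0555 FPKM (SD, n = 3). The replicate ranges of neighbours in this order did not overlap for any of the 8 neighbouring pairs, and the narrowest step was the 1.19-fold one from MDM2 to TP53I3. These levels are per length of the authors' gene model, which for MDM2 counts 13284 bases, so the order holds for those lengths. The p53 targets were therefore present without irradiation at levels from well expressed to near 0.

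**Figure D1:**
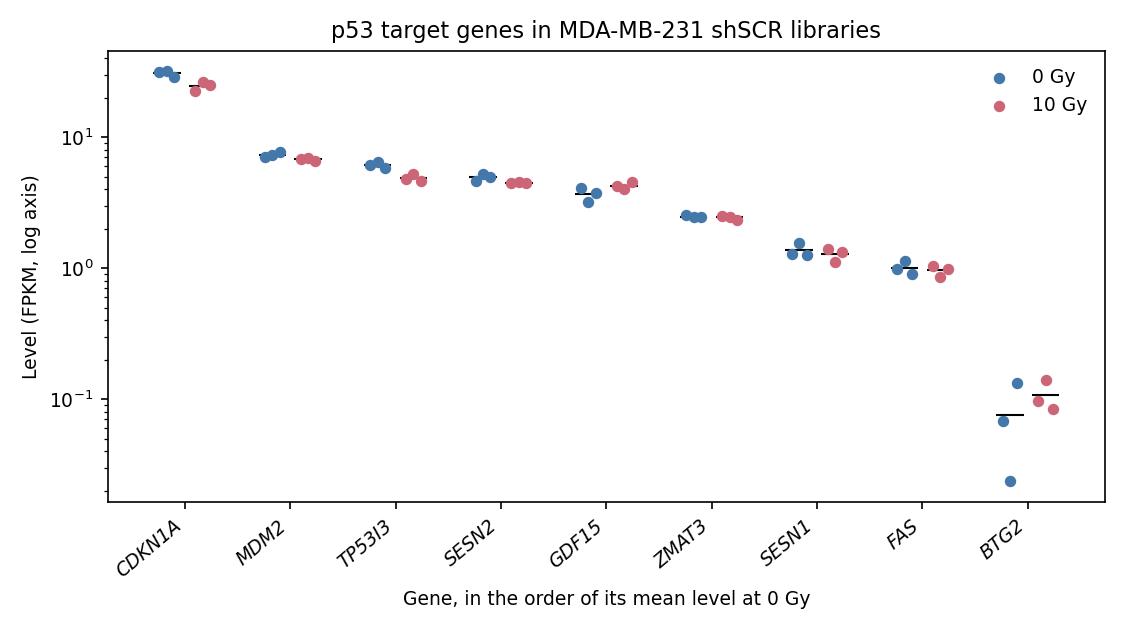
Levels of the 9 genes in each library, as FPKM on a log axis, with 3 libraries at 0 Gy (blue) and 3 at 10 Gy (red) and a bar at each group mean. CDKN1A and TP53I3 sit lower in all 3 irradiated libraries, and BTG2 lies far below the other genes at both doses.

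At 24 h after 10 Gy, none of the 9 genes was called higher. CDKN1A fell by 19.6% and TP53I3 fell by 20.4% in mean FPKM, and MDM2, GDF15, SESN1, SESN2 and ZMAT3 did not pass the test. FAS and BTG2 had means under 1 FPKM and were not in the test. The RNA is from bulk cultures, where fewer cells expressing a gene and less RNA per cell cannot be told apart. The test was that of limma, run on log2(FPKM + 1) across the 12128 genes that reached a mean of 1 FPKM and adjusted over all of them by Benjamini-Hochberg, and 7 of the 9 genes were among these. The 2 called genes are 28.6% of the 7, against 35.6% of all genes tested (11.9% higher, 23.7% lower), so the share called among these genes was near the background. With a minimum change of 1.3-fold, 0 of the 7 were called, against 5.77% of all genes (2.82% higher, 2.95% lower). The median log2 difference was -0.10 for the 7 genes and -0.04 for all genes tested. The groups did not overlap for 4 of the 7 genes, against 51.9% of all genes. Without control replicate 1, 4 of the 7 were called, 1 higher (GDF15) and 3 lower (with SESN2).

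**Figure D2:**
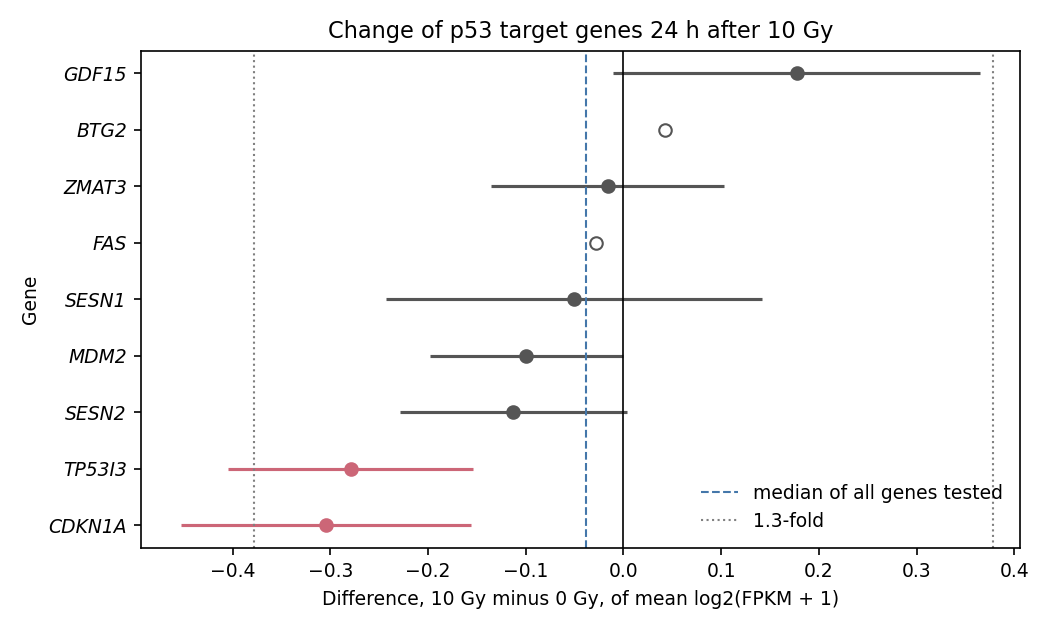
Difference between 10 Gy and 0 Gy in mean log2(FPKM + 1) for each gene, with the 95% confidence interval of limma; red marks the 2 genes with an adjusted p under 0.05 and open circles the 2 genes below the minimum level. The intervals of CDKN1A and TP53I3 lie wholly below 0, the dashed line is the median of all genes (-0.04), and the dotted lines mark 1.3-fold.

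Among the arrest genes, CDKN1A, which encodes the p21 inhibitor of cyclin-dependent kinases, lies on chromosome 6 of GRCh38 from 36676460 to 36687339. It was at 31.6, 31.9 and 28.8 FPKM at 0 Gy and at 22.7, 26.4 and 25.2 FPKM at 10 Gy, from between 1469 and 2066 reads per library. Every irradiated library was below every control library. The mean went from 30.7 to 24.7 ± 1.90 FPKM (SD, n = 3), 0.804 times the control level. The log2 difference was -0.30 (SE 0.06, adjusted p = 0.0102 from limma), and its 95% interval runs from 0.731-fold to 0.898-fold on the FPKM + 1 scale. Of all genes tested, 12.8% differed by at least as much. DINOL, a noncoding RNA that overlaps CDKN1A on the opposite strand and known as a p53 target, had 2 reads over all 6 libraries. BTG2, an antiproliferative gene on chromosome 1 from 203305491 to 203309602, was barely detected. Its reads numbered 4, 1 and 8 at 0 Gy and 8, 7 and 5 at 10 Gy, or 13 against 20 in all. Per read of depth this is a ratio of 1.29, with an exact 95% interval of 0.609 to 2.81 that covers counting error only. No change of BTG2 was detected, and at this depth a change within that interval cannot be told from none.

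MDM2, the ubiquitin ligase in the feedback on p53, lies on chromosome 12 from 68808176 to 68850686. It was at 7.06, 7.33 and 7.66 FPKM at 0 Gy and at 6.80, 6.96 and 6.61 FPKM at 10 Gy, from 1497 to 2703 reads. The irradiated libraries were all below the control libraries, by a small step. The log2 difference was -0.10 (SE 0.04, adjusted p = 0.105 from limma), with a 95% interval of -0.20 to -0.0007. CPM, a gene on the opposite strand, overlaps the end of MDM2 over 8490 bases, and its level was between 1.42 and 1.91 FPKM. The strand setting of the counting is not given in the sources used here, so reads in that overlap cannot be told apart. Transcripts from the intronic promoter shown above and from the upstream promoter share the gene's single row, so their levels cannot be told apart either.

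Of the death-linked genes, TP53I3 was tested and FAS was under the minimum level. TP53I3, an oxidoreductase linked to p53-driven apoptosis, lies on chromosome 2 from 24077433 to 24085861. It was at 6.15, 6.47 and 5.85 FPKM at 0 Gy and at 4.83, 5.21 and 4.65 FPKM at 10 Gy, from 220 to 334 reads. The groups did not overlap. The mean at 10 Gy, 4.90 ± 0.285 FPKM (SD, n = 3), was 0.796 times that at 0 Gy, with a log2 difference of -0.28 (SE 0.05, adjusted p = 0.0077 from limma). TP53I3 lies wholly within the span of FAM228B on the other strand, which was at 0.119 to 0.225 FPKM. FAS, the receptor for the death ligand FASLG, lies on chromosome 10 from 88990582 to 89015785. It was at 0.981, 1.13 and 0.901 FPKM at 0 Gy and at 1.05, 0.863 and 0.988 FPKM at 10 Gy, from 67 to 133 reads, and the groups overlapped. Its mean at 10 Gy was 0.961 times that at 0 Gy. With no minimum level, which lets FAS and BTG2 into the fit, the adjusted p was 0.870 for FAS and 0.610 for BTG2 (limma).

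The sestrins restrain the growth kinase complex mTORC1 and limit oxidative stress. SESN2, on chromosome 1 from 28259527 to 28282491, was at 4.64, 5.28 and 4.96 FPKM at 0 Gy and at 4.49, 4.52 and 4.51 FPKM at 10 Gy. Its irradiated libraries lay close together (SD 0.0139 FPKM) and below all controls. The log2 difference was -0.11 (SE 0.05, adjusted p = 0.116 from limma), with a 95% interval of -0.23 to 0.00. SESN1, on chromosome 6 from 108986437 to 109094819, was at 1.28, 1.55 and 1.26 FPKM at 0 Gy and at 1.39, 1.12 and 1.33 FPKM at 10 Gy. The groups overlapped, and the log2 difference was -0.05 (SE 0.08, adjusted p = 0.660 from limma). SESN3, the third sestrin, was at 0.168 FPKM at 0 Gy and 0.179 FPKM at 10 Gy.

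Neither GDF15 nor ZMAT3 was called. GDF15, on chromosome 19 from 18374731 to 18389176, was at 4.11, 3.18 and 3.72 FPKM at 0 Gy and at 4.25, 4.02 and 4.54 FPKM at 10 Gy, from 102 to 265 reads. Control replicate 1 lay above an irradiated library, so the groups overlapped. The mean at 10 Gy was 1.16 times the control mean, and the log2 difference of 0.18 (SE 0.08) had an adjusted p of 0.124 from limma. Without control replicate 1 the difference was 0.25 and the adjusted p 0.0465. ZMAT3, a zinc finger protein that binds RNA, lies on chromosome 3 from 179017223 to 179072279. It was at 2.53, 2.44 and 2.46 FPKM at 0 Gy and at 2.51, 2.47 and 2.33 FPKM at 10 Gy, with overlapping groups. Its log2 difference was -0.02 (SE 0.05, adjusted p = 0.827 from limma), and the 95% interval of its fold on the FPKM + 1 scale was 0.911 to 1.07.

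The choice of scaling moved these results, since scaling to TPM raised the median log2 difference of all genes by 0.11. Relative to that median, the difference of CDKN1A was -0.27 with FPKM as deposited and -0.25 with TPM, and that of TP53I3 was -0.24 with both. Under TPM the adjusted p of CDKN1A was 0.052 and that of TP53I3 0.0613, so that neither was called. GDF15 was then called higher, with a log2 difference of 0.28 (adjusted p = 0.024 from limma) and 0.21 relative to the median, against 0.22 as deposited. With median-of-ratios scaling, which put the median of all genes at 0.00, CDKN1A (adjusted p = 0.0176) and TP53I3 (adjusted p = 0.0149) were called lower. The log2 difference of MDM2 was 0.01 under TPM and -0.06 under median-of-ratios scaling, so its sign depended on the scaling. The signs of SESN1 and ZMAT3 did so too.

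A wider list of p53 targets was written by role from general knowledge, with earlier results of these data known. It held 47 further genes, of which 40 passed the minimum level. Of these, 6 rose and 16 fell, and 18 did not pass the test, which makes 55.0% called against 35.6% of all genes. In the other lists together, given below, 23 of 42 tested genes were called, or 54.8%. A share of this size was therefore not particular to the p53 targets. The median log2 difference of the wider p53 list was -0.11, against -0.04 for all genes. Changes of at least 1.3-fold were called for 8 of the 40 p53 targets, of which 2 rose and 6 fell. Of all genes, 5.77% were called at that change (2.82% higher, 2.95% lower). Under TPM scaling, 18 of the 40 were called, 8 higher and 10 lower. Of all 12128 genes, 4198 were called under TPM scaling, 3127 higher and 1071 lower. Across the 14 alternative settings, 15 of the 22 called genes were called in the same direction in every setting. RCHY1, COP1, E2F7, TNFRSF10A, DRAM1 and ISCU lost their call under TPM scaling. The calls of RCHY1, COP1, E2F7, DRAM1, ISCU and CES2 were also lost when at least 1 single library was left out.

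**Figure D3:**
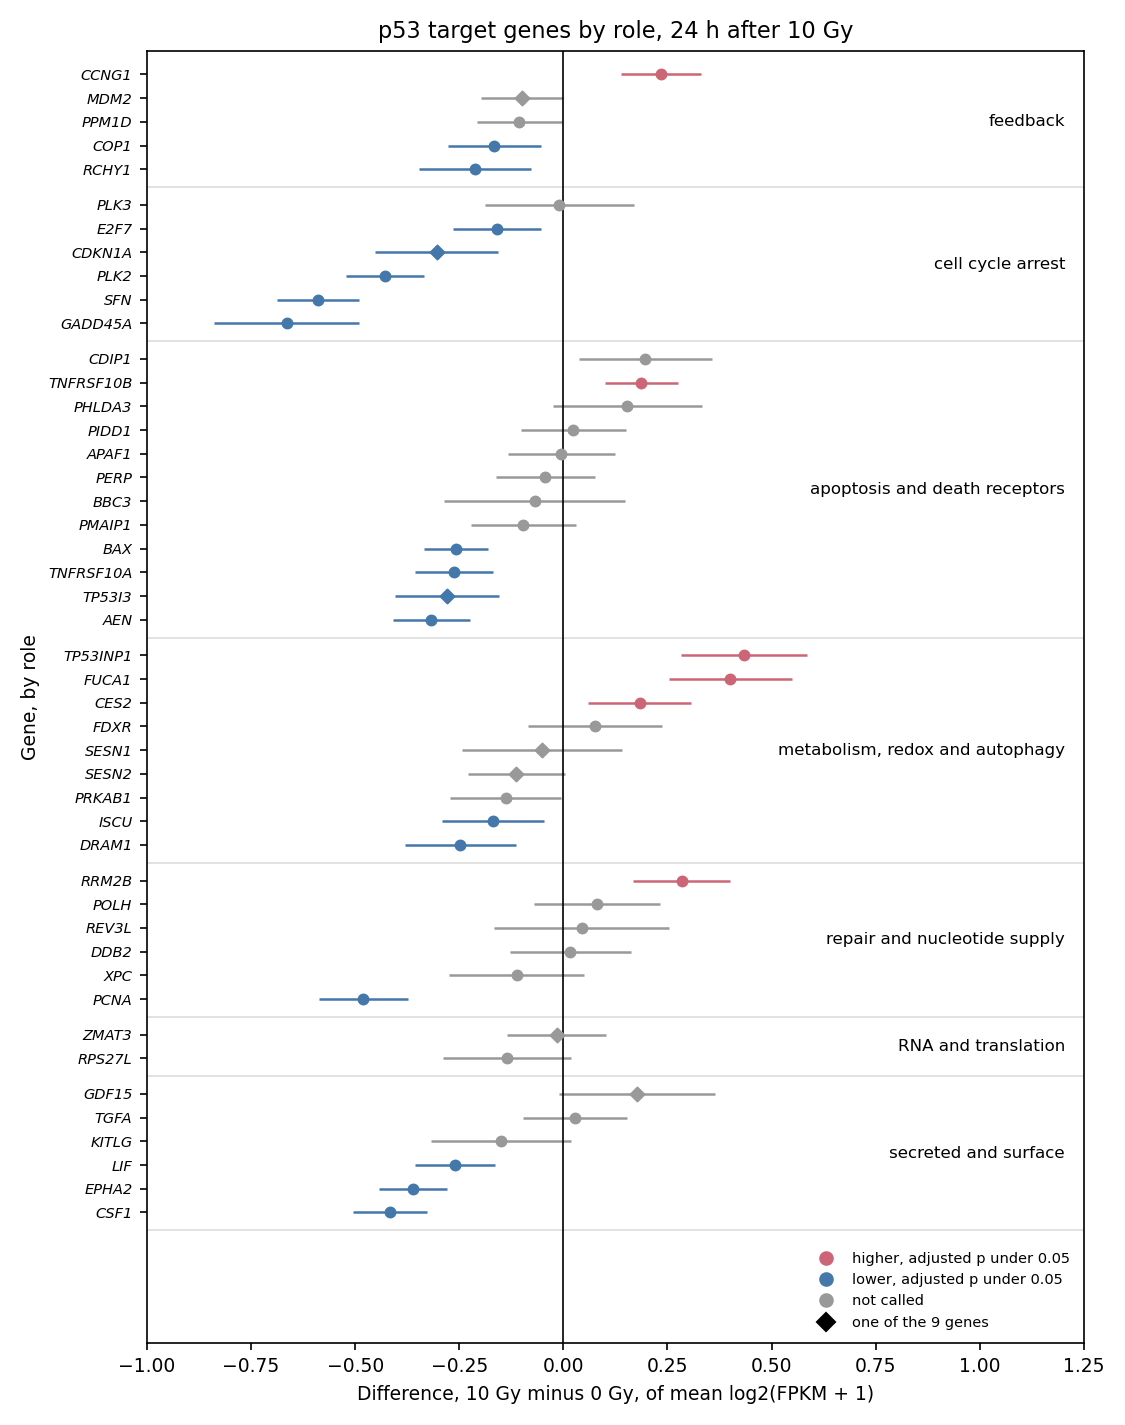
Difference between 10 Gy and 0 Gy in mean log2(FPKM + 1) for tested p53 targets, grouped by role, with 95% confidence intervals of limma; red is called higher, blue called lower and grey not called, and diamonds mark the tested genes among the 9. Genes of cell cycle arrest lie at or below 0 and reach -0.66, while TP53INP1 and FUCA1 in the metabolic group lie above 0.4.

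Of the 5 further arrest genes, 4 fell and 0 rose, against 23.7% of all genes called lower. GADD45A, a stress sensor induced by DNA damage, went from 30.2 ± 3.11 to 18.6 ± 0.926 FPKM (SD, n = 3), a log2 difference of -0.66 (adjusted p = 0.00122 from limma). SFN (14-3-3 sigma), which holds cyclin B in the cytoplasm, went from 62.8 to 41.4 FPKM, a log2 difference of -0.59. PLK2, a polo-like kinase, fell by 0.43 on the log2 scale. The other gene called here was E2F7 (log2 difference -0.16), and PLK3 was not called (log2 difference -0.01). The log2 differences of GADD45A, SFN and PLK2 all exceeded that of CDKN1A, although those differences from CDKN1A were not tested.

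Of the 4 further feedback genes, CCNG1, a cyclin that recruits a phosphatase to MDM2, rose from 20.6 ± 0.992 to 24.4 ± 0.560 FPKM (SD, n = 3), a log2 difference of 0.24 (adjusted p = 0.0054 from limma). The ubiquitin ligases RCHY1 and COP1 fell, by 0.21 and 0.17 on the log2 scale. PPM1D, the phosphatase that turns off p53 signalling, was at 5.14 FPKM at 0 Gy and 4.70 FPKM at 10 Gy and was not called (adjusted p = 0.0959 from limma). Among the 11 tested apoptosis genes other than TP53I3, 1 rose and 3 fell. The share called, 36.4%, was near the 35.6% of all genes. The nuclease AEN fell by 0.32, the death receptor gene TNFRSF10A by 0.26 and the BCL2-family effector BAX by 0.26 on the log2 scale. TNFRSF10B, another receptor for the ligand TRAIL, rose from 42.9 to 49.0 FPKM, a log2 difference of 0.19 (adjusted p = 0.0085 from limma). The p53 targets BBC3 (PUMA) and PMAIP1 (NOXA) had log2 differences of -0.07 and -0.10 and were not called.

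Of the 7 tested genes of metabolism, redox and autophagy other than the sestrins, 3 rose and 2 fell. Of all genes, 11.9% were called higher and 23.7% lower. TP53INP1, which takes part in autophagy and p53 signalling, rose from 1.46 ± 0.0523 to 2.33 ± 0.188 FPKM (SD, n = 3), a log2 difference of 0.43 (adjusted p = 0.0031 from limma). FUCA1, a lysosomal fucosidase, rose from 12.2 to 16.3 FPKM, a log2 difference of 0.40. The lysosomal membrane protein gene DRAM1 fell by 0.25 on the log2 scale. TIGAR, SCO2, GLS2, PANK1 and SPATA18 were under 1 FPKM and not tested. In the repair list, RRM2B, a p53-inducible ribonucleotide reductase subunit, rose by a log2 difference of 0.28 and PCNA, the replication clamp, fell by 0.48, from 170.0 to 121 FPKM. DDB2 and XPC, which recognise ultraviolet damage, were not called, and their log2 differences were 0.02 and -0.11. RPS27L, a ribosomal protein gene listed beside ZMAT3, was not called (log2 difference -0.14), except lower without control replicate 3. Among the secreted and surface genes, the cytokine gene CSF1 fell by 0.42 on the log2 scale. The receptor kinase gene EPHA2 fell by 0.36 and the cytokine gene LIF by 0.26. TGFA and KITLG were not called (log2 differences 0.03 and -0.15), although KITLG was called lower by eBayes without the trend.

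Among the listed regulators of p53, 2 rose and 1 fell. The damage kinase ATM rose from 3.83 ± 0.242 to 5.04 ± 0.0826 FPKM (SD, n = 3), a log2 difference of 0.32 (adjusted p = 0.0035 from limma). The acetyltransferase gene EP300 rose by a log2 difference of 0.31, a call lost with no minimum level and without RT replicate 1 or 2. The acetyltransferase gene KAT5 fell by 0.36 on the log2 scale. The log2 differences of the other tested regulators were 0.20 for CREBBP, 0.15 for CHEK2, 0.14 for TP53BP1, 0.05 for ATR, 0.03 for HIPK2, -0.03 for MDM4, -0.05 for USP7 and -0.08 for CHEK1. None of these 8 was called with FPKM as deposited and all libraries in the main fit. CREBBP and TP53BP1 were called higher under TPM and median-of-ratios scaling and with limma voom. CREBBP was also called without control replicate 3 and TP53BP1 without control replicate 2. CHEK2 was called higher under TPM scaling. The p53 relatives TP63 and TP73 were under 1 FPKM, at 0.131 and 0.643 FPKM at 0 Gy and at 0.212 and 0.513 FPKM at 10 Gy.

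The families of CDKN1A, BTG2 and FAS were listed for comparison. Of the 5 tested CDK inhibitors, CDKN1A included, 0 rose and 3 fell. Of the 4 tested BTG and TOB genes, 1 rose and 1 fell. Of the 5 tested death receptors and decoys, 2 rose and 1 fell. Of all genes, 11.9% were called higher and 23.7% lower. The families are small and were not compared by a test. Among the CDK inhibitors, CDKN2D fell from 34.4 to 24.0 FPKM (log2 difference -0.50, adjusted p = 0.0019 from limma), more than CDKN1A by value. CDKN1C fell from 2.43 to 1.90 FPKM, a call lost under TPM and median-of-ratios scaling and without control replicate 1 or 3 or RT replicate 2 or 3. CDKN1B and CDKN2C were at 21.8 and 22.3 FPKM at 0 Gy and had log2 differences of -0.10 and -0.09 that were not called. Under upper quartile scaling CDKN1B was called lower. CDKN2A and CDKN2B, a locus known to be deleted in this line, had 0 reads in all 6 libraries, which allows up to 3 reads in each, or 0.0232 to 0.0451 FPKM for CDKN2A. Among the relatives of BTG2, TOB1 rose from 15.1 to 24.0 FPKM (log2 difference 0.64, adjusted p = 0.000864 from limma) and BTG3 fell from 18.6 to 14.2 FPKM (log2 difference -0.36). BTG1 and TOB2 had log2 differences of -0.03 and 0.11 and were not called, and BTG4 was at or below 0.0304 FPKM in every library. TOB2 was called higher under TPM and median-of-ratios scaling and without control replicate 2. Among the death receptors, FAS was lower than TNFRSF21 (69.1 FPKM), TNFRSF1A (46.2 FPKM) and both TRAIL receptors at 0 Gy. TNFRSF10D, a decoy for TRAIL, rose by a log2 difference of 0.15, a call lost in 5 of the 6 fits that leave out a library. TNFRSF1A and TNFRSF21 were not called, at log2 differences of -0.10 and 0.02, and TNFRSF10C and TNFRSF25 were under 1 FPKM. TNFRSF21 was called higher under TPM scaling.

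**Figure D4:**
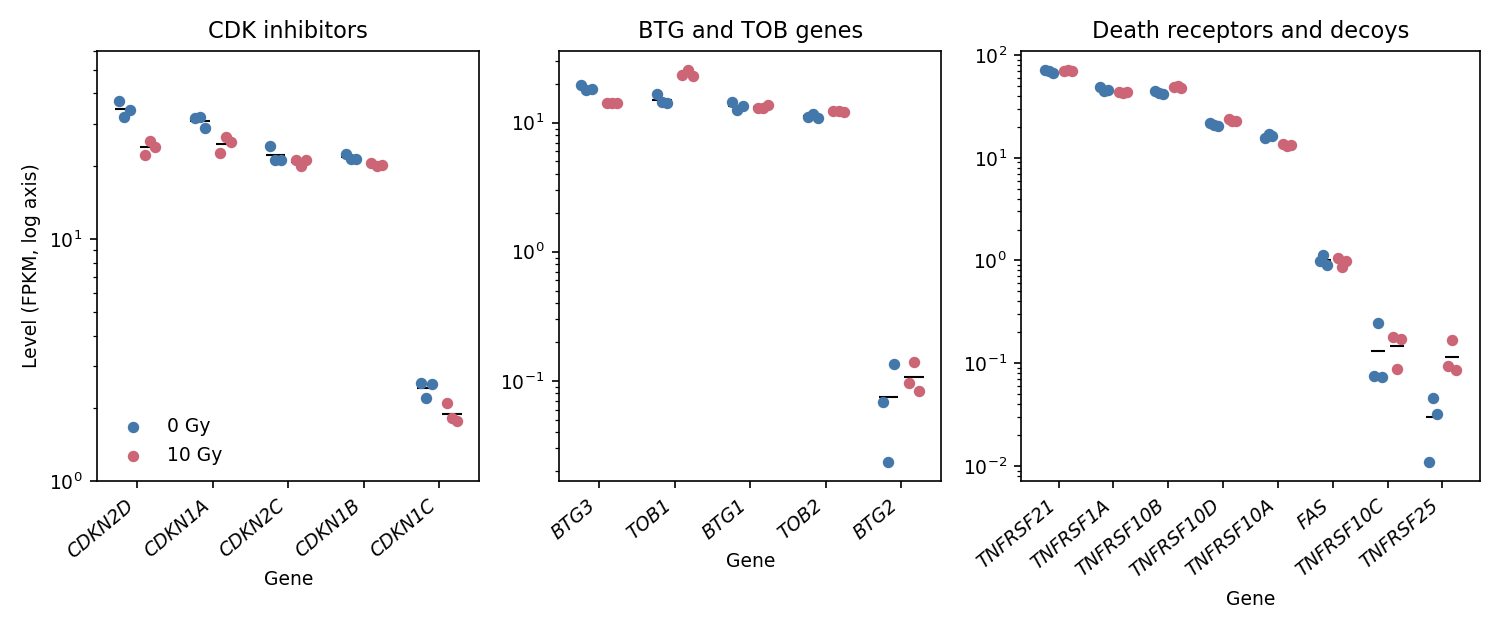
Levels of the CDK inhibitors, the BTG and TOB genes and the death receptors and decoys in each library, as FPKM on log axes, with 3 libraries at 0 Gy (blue), 3 at 10 Gy (red) and a bar at each group mean; genes with a mean under 0.05 FPKM are left out. CDKN2D and CDKN1A lie lower and TOB1 higher in all 3 irradiated libraries, and BTG2 and FAS lie below the abundant members of their families.

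The ATF4 stress response shares GDF15 and SESN2 with p53. Of its 11 tested genes, 1 rose and 6 fell, against 23.7% of all genes called lower, and GDF15 and SESN2 were not called. CHAC1, 1 of the 6 (log2 difference -0.35), lost its call under TPM scaling, with no minimum level and without RT replicate 1, 2 or 3. TRIB3 fell from 16.8 to 10.5 FPKM, PPP1R15A from 92.0 to 59.2 FPKM and PSAT1 from 97.4 to 65.9 FPKM, log2 differences of -0.63, -0.63 and -0.56. ATF4 itself fell by 0.30 on the log2 scale. DDIT4, also a known p53 target, rose from 24.4 to 32.9 FPKM. Genes that p21 is known to repress through the DREAM complex were listed too, also with earlier results of these data known. Of 10 such genes, 8 rose and 0 fell, against 11.9% of all genes called higher. CCNB2 had a log2 difference of 0.55, AURKA of 0.49 and CCNB1 of 0.42, and FOXM1 and MYBL2 were not called (0.01 and -0.14). FOXM1 was called higher under TPM scaling, and MYBL2 lower with the replicate block and with limma voom. The call of CDK1 was lost without RT replicate 1. What part p21 has in these rises was not tested. In bulk RNA, more cells expressing these genes and more RNA per cell cannot be told apart.

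The genes whose pattern over the 6 libraries was most like that of CDKN1A, among 10490 other protein-coding genes, were TXNDC15 (Pearson's r = 0.995), RETREG2 (0.993) and C17orf75 (0.990) on log2(FPKM + 1). TXNDC15 went from 9.99 to 8.85 FPKM, RETREG2 from 15.3 to 14.0 FPKM and C17orf75 from 4.27 to 3.46 FPKM. The 6 points fall into 2 doses, and the 3 genes, like CDKN1A, were lower on average at 10 Gy, so each r includes that step between doses.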

How the data were processed

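The authors deposited 1 table of FPKM values from polyA-enriched libraries, which a sequencing company prepared, read and analysed for them. The submitters' processing notes name HISAT2 and GRCh38. The counting program, its strand setting and the annotation release are not given in the sources used here. All 58735 gene identifiers are in GENCODE 29, 99.98% with the same coordinates. Whole reads were recovered from FPKM, gene length and the implied depth, and were used for depth, for reads behind named genes and for an alternative fit.

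Groups came from the sample titles. The doses were compared by limma 3.58.1 under R 4.3.3, with an intensity trend in eBayes and two-sided tests. It ran on log2(FPKM + 1), which understates folds of low genes, and took in genes whose mean reached 1 FPKM. A gene was called where its p, adjusted after Benjamini-Hochberg, was under 0.05, and counts at 1.3-fold are given after the study's own minimum change. For SCO2, which has 2 rows, the more abundant was taken. The procedure was tested on simulated data.

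The 9 genes, the lists and the tests were chosen with earlier results of these data known. Some genes of the lists are counted but not reported here by name. All 9 genes and the other genes of the regulator, CDK inhibitor, sestrin, BTG and TOB and death receptor lists are named. From the other lists the 3 called genes with the largest change were to be named, and the other genes named were chosen after their values were seen. The alternatives were a pseudocount of 0.1, no minimum level, TPM, upper quartile and median-of-ratios scaling, eBayes without the trend, the replicate number as a block, limma voom on recovered reads, and each library left out in turn. Plots come from matplotlib 3.10.9 on Python 3.11.15.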

Additional observations from a re-analysis of the deposited data

How the results depend on the processing

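Called lower as deposited, CDKN1A and TP53I3 stayed so in 13 of 14 alternatives each, TPM scaling being the exception, with log2 differences of -0.35 to -0.18 and -0.33 to -0.17. The count of called genes among the 7 tested was 2, with 1 under TPM scaling (GDF15, higher) and 2 to 4 when a library was left out. With limma voom on recovered reads it was 3, since MDM2 was called lower (log2 difference -0.11, adjusted p = 0.0476). Over all genes, 4317 were called, 33.4% of them higher. Leaving out a library gave 2660 to 3993, with 2705 without RT replicate 1 and 2660 without RT replicate 2. The share called higher was 74.5% under TPM and 48.7% under median-of-ratios scaling, so directions near the median of all genes depend on the scaling. The wider p53 list ranged from 16 to 24 called genes around 22, and the other lists together from 19 to 29 around 23.

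Replicate numbers did not pair the libraries. Deviations from the group means correlated at -0.04, -0.03 and -0.10 for libraries with the same number, and no library correlated best with its own number. With the replicate number as a block, 3503 genes were called, 2 of the 7 among them, CDKN1A and TP53I3. The depth, at 1 to 8 reads per library, limits any statement on BTG2.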
